A study of Mus musculus with 2 samples.

Results

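The genes described here are 10 transcription factor genes of the AP-1 and stress-induced immediate early class: Fos, Fosb, Fosl2, Jun, Junb, Jund, Atf3, Bhlhe40, Klf6 and Klf10. They were chosen by name, not by a cut on their measured values, but with earlier results of these data known. Every probe carrying one of these names or its older synonym was kept. Jund is listed under its older name Jund1 and Bhlhe40 under Bhlhb2. The set held 13 probes, 12 of which could be tested, and all 10 genes were among the 15103 genes tested on the arrays.

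Each of 2 Agilent two-colour arrays set autoreactive immature B cells, labelled with Cy5, directly against non-autoreactive immature B cells, labelled with Cy3. The autoreactive cells came from BALB.B mice of genotype 3-83Igi,Rag1-/-,H-2b, and the non-autoreactive cells from BALB/c mice of genotype 3-83Igi,H-2d. All mice carried the 3-83Igi immunoglobulin genes and none was treated. Bone marrow cells that were B220+ and negative for CD23, CD43 and IgD were sorted, and each sample was a pool. As background, 3-83Igi places a fixed antigen receptor in the immunoglobulin loci, and that receptor binds class I molecules of H-2b but not those of H-2d. Strain, H-2 haplotype, the Rag1 disruption and the dye all followed the groups, so their parts cannot be told apart from autoreactivity. The labels number the autoreactive pools alone and give no account of the animals in each pool, so the p-values measure only the spread between these 2 arrays, moderated by the spread of all probes.

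AP-1 is a dimer of basic leucine zipper (bZIP) proteins. A Fos family protein (Fos, Fosb, Fosl2) typically pairs with a Jun family protein (Jun, Junb, Jund). Jun proteins can also pair with each other or with ATF proteins such as Atf3. Most of these genes are immediate early genes: they are transcribed within minutes of a signal, from promoters already bound by factors such as CREB and SRF, and their messengers are short-lived. In B cells, antigen receptor signalling is a known inducer of them. The 3 other genes are induced early by stress or growth factors: Bhlhe40 encodes a basic helix-loop-helix repressor, and Klf6 and Klf10 encode zinc finger proteins of the Krüppel-like family.

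The sequences just upstream of 4 genes are shown because the 2 genes that passed the test, Junb and Jund, belong to 1 gene family with Jun, and Fos is the partner they are best known with. Each sequence is the 250 bases before the gene's start, 5′ to 3′ on the gene's own strand, from RefSeq on GRCm38.p6. The capitals mark TGACG, the short form of a CREB site, in Fos and Junb, and TGACATCA in Jun. The positions are chr8:84978749-84978998 (minus strand) for Junb, chr8:70697489-70697738 (plus strand) for Jund, chr4:95052223-95052472 (minus strand) for Jun and chr12:85473640-85473889 (plus strand) for Fos.
Junb: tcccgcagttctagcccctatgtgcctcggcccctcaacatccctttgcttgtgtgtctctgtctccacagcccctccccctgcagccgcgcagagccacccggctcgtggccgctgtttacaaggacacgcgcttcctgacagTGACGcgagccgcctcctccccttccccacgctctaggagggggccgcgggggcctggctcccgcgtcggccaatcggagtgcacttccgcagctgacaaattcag
Jund: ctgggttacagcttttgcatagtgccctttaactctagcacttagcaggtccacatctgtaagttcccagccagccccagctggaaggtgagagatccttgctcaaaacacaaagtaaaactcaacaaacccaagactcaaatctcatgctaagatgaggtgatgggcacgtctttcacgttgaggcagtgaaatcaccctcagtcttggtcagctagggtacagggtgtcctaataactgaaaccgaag
Jun: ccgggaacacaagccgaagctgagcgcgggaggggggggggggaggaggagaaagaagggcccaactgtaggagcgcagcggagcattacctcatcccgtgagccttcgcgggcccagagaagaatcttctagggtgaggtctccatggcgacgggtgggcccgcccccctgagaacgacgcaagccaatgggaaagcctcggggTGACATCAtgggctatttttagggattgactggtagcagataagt
Fos: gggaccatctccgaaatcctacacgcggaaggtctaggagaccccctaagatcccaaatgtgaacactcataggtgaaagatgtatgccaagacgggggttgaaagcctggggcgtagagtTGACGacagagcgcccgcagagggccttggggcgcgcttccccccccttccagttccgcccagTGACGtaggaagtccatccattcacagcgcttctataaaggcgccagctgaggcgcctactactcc

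Of the 10 genes, 8 had an entry in the promoter table; the other two were Bhlhe40 and Klf10. Both strands were searched. TGACG was found in 4 of the 8 (2 matches in Fos, 1 each in Fosb, Junb and Atf3), and 17.8% of 32851 promoters held it. In Junb it began 106 bases before the start, and in Fos 129 and 66 bases before it. TGACATCA was found in Jun, beginning 45 bases before the start, and in Klf6, and 2.93% of promoters held it; this motif was chosen after the sequences were seen. The whole CREB site TGACGTCA, which contains TGACG, was in 0 of 8 (1.55% of promoters). The pattern TGANTCA, with any base at N, is wider than the AP-1 site it includes, and was in 0 of 8 (6.75%). The SRF-bound CArG box was in 0 of 8 (1.47%). No motif searched was in the Jund window. A match, or the lack of one, describes these letters in these 250 bases only. Sequence further upstream was not searched.

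Junb and Jund were higher in the autoreactive cells, by 2.15-fold and 1.83-fold, and no gene of the set passed the test in the lower direction. Thus 2 of 10 genes were called higher (limma, Benjamini-Hochberg adjusted p under 0.05), where 3.52% of all genes tested were called higher and 2.62% lower. At an unadjusted p under 0.05 the set held 2 higher (Junb and Jund) and 2 lower genes (Atf3 and Bhlhe40) of 10, where 12% of all genes tested were higher and 12.3% lower at that threshold. The median log2 ratio of autoreactive over non-autoreactive cells was -0.19 over the 10 genes and -0.0018 over all genes tested. The ratio of Jund, 0.87, lay close to the median of 0.84 of other genes as bright as it, whereas that of Junb, 1.11, lay above the median of 0.36 of its own neighbours in brightness.

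The raw spot intensities carry the difference between the dyes: over all gene spots the median Cy5 (autoreactive) intensity was 199 on array 1 and 174 on array 2, against 88.2 and 103 for Cy3. A raw intensity higher in the autoreactive channel is therefore usual, and the log2 ratios given after it are those left once the ratio was normalized by loess within each array.

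**Figure D1:**
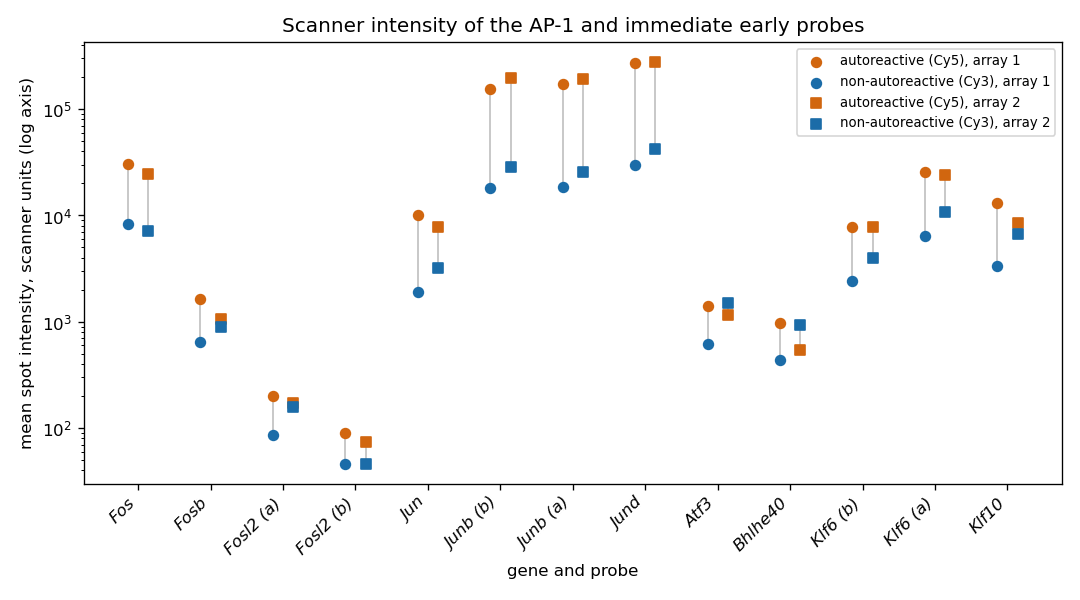
Mean spot intensity (log axis, arbitrary scanner units) of each gene in the autoreactive (Cy5) and non-autoreactive (Cy3) channel of both arrays, before normalization. For Jund the autoreactive channel read 272370 and 274710 and the non-autoreactive channel 29886 and 42358; for Bhlhe40 the autoreactive channel was the brighter one on array 1 and the dimmer one on array 2.

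Among the Fos family, no gene passed the test. Fos (probe at chr12:83478431-83478490, plus strand; the scanner files name no genome build for probe positions) read 30282 in autoreactive and 8313 in non-autoreactive cells on array 1, and 24636 and 7073 on array 2. On the log2 scale the ratio was 0.10 and 0.31, a mean of 0.20 ± 0.13 (SE, n = 2 arrays, limma adjusted p = 0.383, 95% interval -0.11 to 0.52). Both arrays were slightly above 0. Fos was printed 10 times per array, which shows how little the spots themselves varied: the SD over the kept spots was 0.018 on array 1 and 0.030 on array 2.

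Fosb, a Fos relative with its own transactivation domain (chr7:16985502-16985561, minus strand), read 1639 against 644 on array 1 and 1074 against 899 on array 2. The log2 ratios were -0.066 and -0.78, a mean of -0.42 ± 0.19 (SE, n = 2 arrays, limma adjusted p = 0.245). It was near 0 on the first array and lower in autoreactive cells on the second. Fosl2, which encodes the Fos-related antigen Fra-2 (chr5:31189767-31189826, plus strand), read 199 against 86.9 on array 1 and 171 against 157 on array 2. The log2 ratios were -0.0044 and -0.64, a mean of -0.32 ± 0.18 (SE, n = 2 arrays, limma adjusted p = 0.327). The second Fosl2 probe, 4476 bases away, was not well above background in either channel on either array and has no ratio here. With loess, Fosb and Fosl2 thus had the same form: close to 0 on array 1 and below 0 on array 2. The Fosl2 probe was dim, with 87.5% of tested probes brighter. As deposited, its log2 ratios were 0.12 and -0.93, and those of Fosb -0.11 and -0.80.

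Within the Jun family the ratios were above 0 on both arrays for all 3 genes, but Jun was so on array 2 by 0.0069 alone. Junb encodes a Jun protein known both to replace Jun in AP-1 dimers and to restrain it. Its brighter probe (chr8:83563059-83563118, minus strand) read 173930 in autoreactive and 18558 in non-autoreactive cells on array 1, and 193590 and 25648 on array 2. Its ratios, 1.21 and 1.00 (log2), gave a mean of 1.11 ± 0.13 (SE, n = 2 arrays, limma adjusted p = 0.00972, 95% interval 0.79 to 1.42). The other Junb probe shares 22 bases of target with it, so it is not a separate part of the messenger. It gave 1.09 and 0.84, a mean of 0.96 ± 0.13 (SE, n = 2 arrays, limma adjusted p = 0.0157). Both probes were higher in the autoreactive cells on both arrays.

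Jund, the Jun gene known for its steady expression in resting cells (chr8:69154598-69154657, plus strand), read 272370 against 29886 on array 1 and 274710 against 42358 on array 2. Its ratios, 1.07 and 0.67 (log2), gave a mean of 0.87 ± 0.15 (SE, n = 2 arrays, limma adjusted p = 0.0281, 95% interval 0.52 to 1.23). Both arrays were above 0, array 1 the more so.

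Jun itself, the founding AP-1 subunit (chr4:94441779-94441838, minus strand), read 10170 against 1908 on array 1 and 7830 against 3192 on array 2. Its ratios, 0.85 and 0.0069 (log2), gave a mean of 0.43 ± 0.21 (SE, n = 2 arrays, limma adjusted p = 0.279, 95% interval -0.082 to 0.94). The arrays differed for Jun far beyond the noise of its spots. The 10 spots kept on array 1 lay between 0.80 and 0.89 and the 8 kept on array 2 between -0.0096 and 0.033. Across the 141 tested probes printed more than once, the median SD between spots was 0.056 on array 1 and 0.054 on array 2. Spots of a probe share their RNA and hybridisation and are not replicates of the cells.

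**Figure D2:**
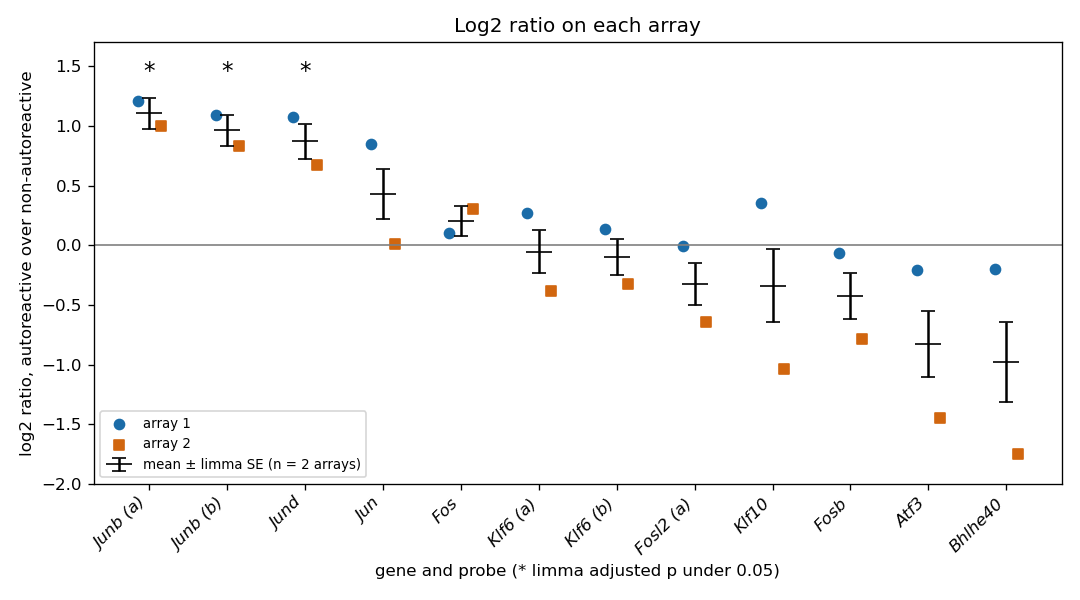
Log2 ratio of autoreactive over non-autoreactive cells for each gene on array 1 and array 2, with the mean and its SE from limma (n = 2 arrays). Junb (1.11) and Jund (0.87) are the genes called higher; Atf3 (-0.83) and Bhlhe40 (-0.98) have the lowest means and arrays that lie far apart.

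The probes of Junb and Jund are among the brightest on the arrays, and the ratios of the brightest genes as a whole lay above 0. Only 1.27% of tested probes were brighter than the Junb probe and 0.318% brighter than the Jund probe, and none of the gene spots was saturated. Among the 237 genes with a mean log2 intensity over 16, which include Jund, the median ratio was 0.68 on the log2 scale (0.72 and 0.64 on the 2 arrays) and 51.1% were called higher. Among the 523 genes between 15 and 16, which include Junb at 15.95, the median was 0.13 and 10.9% were called higher. In the 5 dimmer ranges the medians lay between -0.045 and 0.012.

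Jund did not stand apart from genes of its own brightness. The 109 other genes within 0.25 of its log2 intensity had a median log2 ratio of 0.84, and 50 of them (45.9%) had a larger ratio than Jund. Set against that median, Jund was 0.22 above it on array 1 and 0.095 below it on array 2 (a difference of -0.095). Junb lay further out: the 186 genes within 0.25 of its brightness had a median of 0.36, 26.3% of them were called higher, and 10 (5.38%) had a larger ratio than Junb. Junb was 0.79 above that median on array 1 and 0.70 above it on array 2. These comparisons were added after seeing the data and are descriptions, with no test; the cause of the rise with brightness was not tested.

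**Figure D3:**
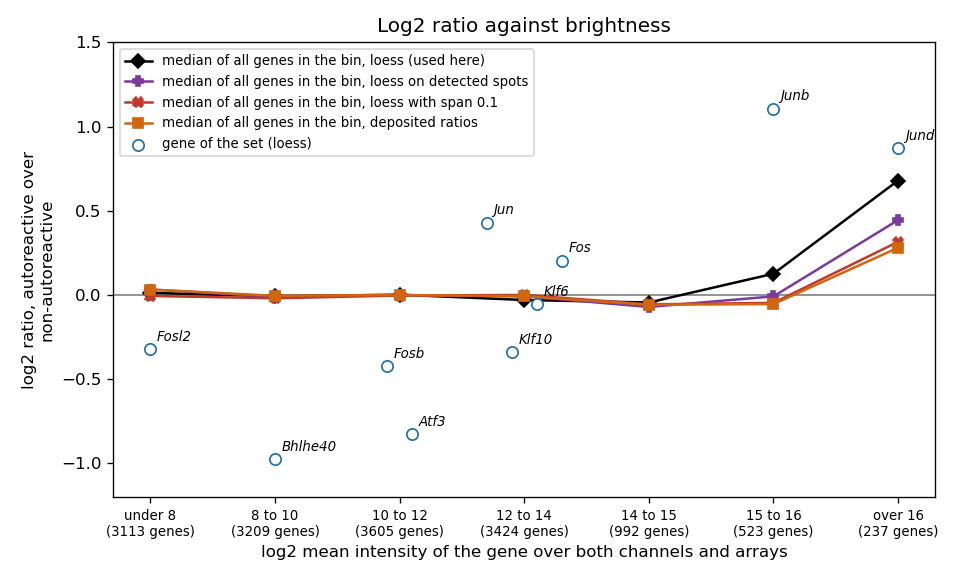
Median log2 ratio of all genes in 7 ranges of mean log2 intensity under 4 normalizations, with the 10 genes drawn in their range at their loess ratio. The median of the 237 brightest genes, which include Jund (0.87), is 0.68 with loess and 0.28 with the deposited ratios. Junb (1.11) lies above the median of 0.13 in its range. It is at the top of that range (15.95), and the 186 genes within 0.25 of its log2 intensity have a median of 0.36.

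How the arrays were normalized moved both calls. With the ratios as deposited, Junb was 0.76 (0.88 on array 1 and 0.63 on array 2, limma adjusted p = 0.0667) and Jund 0.37 (0.59 and 0.15, adjusted p = 0.281), and neither passed; 1.98% of all genes were called higher there. With a narrower loess span of 0.1, Junb was 0.81 (adjusted p = 0.0251) and passed, and Jund was 0.43 (adjusted p = 0.155) and did not, with 2.91% of all genes called higher. Centring each array on its median, in place of loess, called 5 of the 10 genes higher (Fos, Jun, Junb, Jund and Klf6), but also 65.7% of all genes. Centring on detected probes called 4 higher (Fos, Jun, Junb and Jund), beside 18.5% of all genes, and 3 lower (Atf3, Bhlhe40 and Fosl2), beside 16.6%. With no filter on dim probes Junb alone was called, beside 1.37% of all genes. With separate channels, a fit that ignored the pairing of channels within an array, none was called, beside 0.702% (Junb and Jund had an unadjusted p under 0.05). Over the 12 alternatives tried, Junb was called higher in 10, with ratios from 0.76 to 2.41 and adjusted p-values from 6.16e-05 to 0.0836. Jund was called in 8, with ratios from 0.37 to 2.29 and adjusted p-values from 6.16e-05 to 0.281. The sign was above 0 for both genes under all 12. The alternatives that changed only the filter, the variance or the pairing of channels left both ratios as they were. Their signs were thus fixed in advance.

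**Figure D4:**
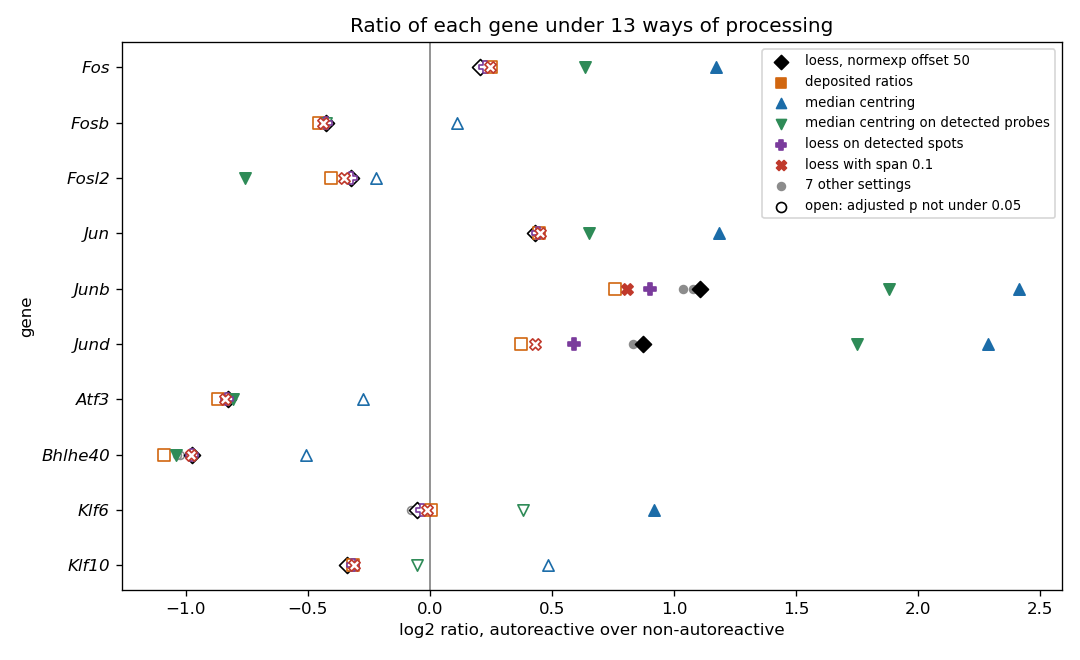
Mean log2 ratio of each gene under loess and 12 other ways of processing, filled where the limma adjusted p is under 0.05 and open where it is not. Junb spans 0.76 to 2.41 and Jund 0.37 to 2.29, and the highest values are those of plain median centring, which raised the median of all genes to 0.58.

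Atf3 and Bhlhe40 had the lowest means of the set and did not pass the test. Atf3, a bZIP protein induced by many stresses that can act as a repressor (chr1:190724174-190724233, minus strand), read 1421 against 620 on array 1 and 1154 against 1500 on array 2. The log2 ratios were -0.21 and -1.45, a mean of -0.83 ± 0.28 (SE, n = 2 arrays, limma adjusted p = 0.155, 95% interval -1.51 to -0.15). Bhlhe40 (chr6:108760353-108760412, plus strand) read 966 against 435 on array 1 and 539 against 936 on array 2. The log2 ratios were -0.20 and -1.75, a mean of -0.98 ± 0.34 (SE, n = 2 arrays, limma adjusted p = 0.162, 95% interval -1.80 to -0.15). For both genes almost the whole of the mean came from array 2.

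The Krüppel-like genes changed sign between the arrays. Klf6 (chr13:5755138-5755197, plus strand) read 25430 against 6394 on array 1 and 24084 against 10777 on array 2, with log2 ratios of 0.27 and -0.38 and a mean of -0.055 ± 0.18 (SE, n = 2 arrays, limma adjusted p = 0.878). A second Klf6 probe 2605 bases away gave 0.13 and -0.33, so both probes placed the arrays on opposite sides of 0. Klf10, known as an early target of TGF-beta (chr15:38405475-38405534, minus strand), read 13165 against 3370 on array 1 and 8412 against 6706 on array 2. The log2 ratios were 0.35 and -1.03, a mean of -0.34 ± 0.31 (SE, n = 2 arrays, limma adjusted p = 0.537, 95% interval -1.09 to 0.41).

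Read together, the 10 genes had lower ratios on array 2 than on array 1. This held for 9 of the 10 (90%), Fos being the exception, where 52.1% of all genes tested were lower on array 2. Under either form of median centring it held for 8 of 10, Junb then being the second exception, and under the 10 other alternatives for 9. The median ratio of the 10 was 0.19 on array 1 and -0.51 on array 2, against 0.0087 and -0.010 for all genes. The median absolute gap between the arrays was 0.69 for the 10 genes and 0.19 for all genes. The gap was among the widest on the arrays for 3 of them: 0.377% of all genes had a wider gap than Bhlhe40, 0.543% than Klf10 and 0.755% than Atf3. For Jun the figure was 2.85%, for Fosb 4.89%, for Klf6 6.40%, for Fosl2 6.73% and for Jund 18.7%. Junb (45.2%) and Fos (46.2%) had gaps of ordinary size.

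Split by channel, with the channels scaled between arrays, the gap lay on both sides for the genes where it was widest. Between array 1 and array 2 the non-autoreactive log2 level of Atf3 differed by 1.05, that of Klf10 by 0.86, that of Bhlhe40 by 0.84 and that of Jun by 0.59, all higher on array 2. The autoreactive level was lower on array 2 by a smaller amount: the difference was -0.71 for Bhlhe40, -0.53 for Klf10, -0.25 for Jun and -0.19 for Atf3. For Junb both channels were higher on array 2, by 0.22 in autoreactive and 0.43 in non-autoreactive cells. In 9 of the 10 genes, all but Fos (-0.34), the non-autoreactive level was higher on array 2. The share of all genes for which this held was not counted. The autoreactive level was lower on array 2 except for Junb, Jund (0.080) and Klf6 (0.024).

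Markers of other cell types differed between the arrays in the same direction. Of 36 tested markers of T, NK, monocyte and macrophage, granulocyte, erythroid, plasmacytoid dendritic and plasma cells, 31 (86.1%) were lower on array 2, and the median ratio of the 36 (log2) went from -0.097 to -0.90. The shift was wide for the 4 plasmacytoid dendritic markers (median -0.85 on array 1 and -2.70 on array 2) and the 6 NK markers (-0.026 and -1.21). It was narrower for the 6 monocyte and macrophage markers (0.13 and -0.54), the 7 granulocyte markers (0.060 and -0.86) and the 6 T cell markers (-0.11 and -0.70). The 3 plasma cell markers had medians of 0.50 and -0.12, but they lay far apart. Sdc1 was called higher (2.00 and 1.88, limma adjusted p = 0.00214) and Jchain lower (-1.26 and -2.04, limma adjusted p = 0.0106). The 4 erythroid markers, with 1 of 4 lower on array 2, gave -0.53 and -0.46. The granulocyte marker Ltf and the erythroid marker Slc4a1 were also called lower.

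In summed scaled intensity, the granulocyte markers read 362070 and 488260 in the non-autoreactive channel of arrays 1 and 2 and 416610 and 359030 in the autoreactive channel. The monocyte and macrophage markers read 72017 and 107820 in the non-autoreactive channel and 107500 and 99248 in the autoreactive one. The NK markers read 10711 and 13305 against 10217 and 5208, and the plasmacytoid dendritic markers 3572 and 5138 against 2026 and 795. These genes were present in a gate set for immature B cells, on both sides. The part of these cells in the array 2 values of the 10 genes was not tested. In bulk samples, fewer cells of a type and less RNA per cell cannot be told apart.

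The B lineage markers did not share this shift as a group, with a median over 8 genes of -0.23 and 0.028 on the 2 arrays. Of the 8, 3 were lower on array 2. Single genes moved either way: Pax5 was -0.77 and -1.33, and Ms4a1 -4.02 and -3.21. Blnk was called higher and Ms4a1 and Pax5 lower. The label check, H2-Ea, a class II gene known to be silent in H-2b and active in H-2d mice, was -5.22 on array 1 and -5.26 on array 2 (limma adjusted p = 0.000187). It was far below 0 on both arrays, as a check of the labelled haplotypes. Of the gene spots, 54.1% to 57.4% were well above background in a channel. None of the 10 genes lies on chromosome 2, which holds Rag1, or on chromosome 17, which holds H-2.

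**Figure D5:**
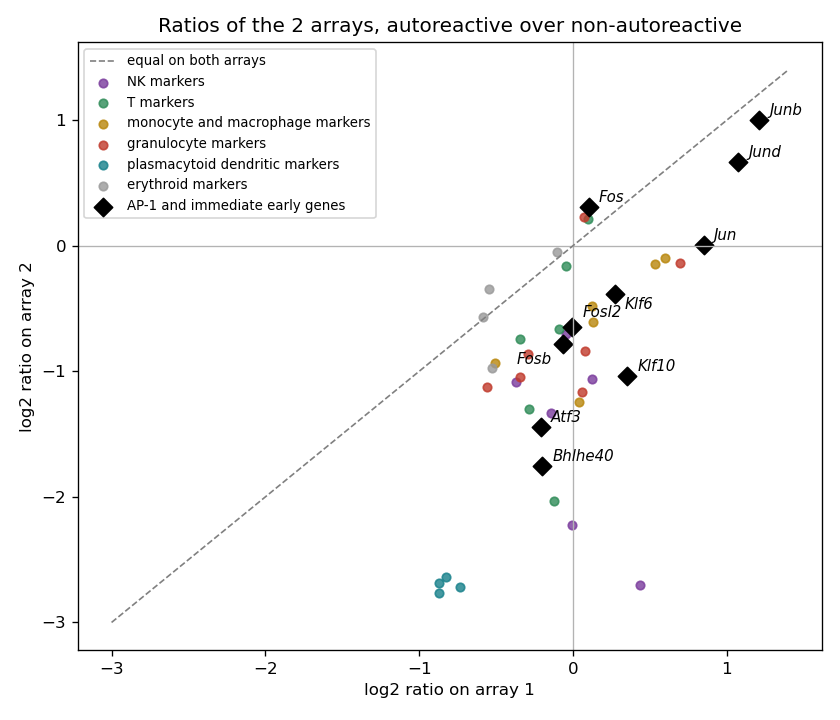
Log2 ratio on array 2 against array 1 for the 10 genes (diamonds) and the markers of 6 of the 7 other cell types (circles; the plasma cell markers are not drawn); the dashed line marks equal ratios. Of the 10 genes, 9 lie below the line, among the NK, granulocyte and monocyte markers for Bhlhe40, Atf3 and Klf10, and close to the line for Junb.

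Beyond the 10 genes, 4 lists of related genes were counted. Of 22 other bZIP genes that can pair with or compete with AP-1 (ATF, BATF, MAF and C/EBP families), 20 were tested and 0 were called in either direction by limma (0 higher and 2 lower at an unadjusted p under 0.05, beside 12% and 12.3% of all genes). Their median log2 ratio was -0.070, with 0.11 on array 1 and -0.16 on array 2. The widest ratios belonged to Cebpb, the C/EBP of inflammatory and myeloid genes, at -0.51 (-0.081 on array 1 and -0.94 on array 2, limma adjusted p = 0.220), and to Cebpd at -0.48 (-0.16 and -0.80, limma adjusted p = 0.181). Both were lower on array 2, as Atf3 and Bhlhe40 were.

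Of 24 genes of the JNK, p38 and SRF routes that switch AP-1 genes on, 23 were tested and 0 were called by limma (2 higher and 3 lower at an unadjusted p under 0.05, beside 12% and 12.3% of all genes), with a median of 0.042. Mapkapk2, a kinase downstream of p38, was -0.33 on array 1 and -0.66 on array 2, a mean of -0.49 ± 0.14 (SE, n = 2 arrays, limma adjusted p = 0.109). Crem, a cyclic AMP responsive relative of CREB, was 0.28 and 0.63, a mean of 0.45 ± 0.14 (SE, n = 2 arrays, limma adjusted p = 0.134). Its 6 probes gave means from 0.42 to 0.61.

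Of 32 other immediate early and stress genes, 30 were tested and 1 was called, Rgs2, which encodes a regulator that ends G protein signals. Rgs2 was 1.68 on array 1 and 1.91 on array 2, a mean of 1.79 ± 0.13 (SE, n = 2 arrays, limma adjusted p = 0.00291). It too was very bright, but 0 of the 135 genes within 0.25 of its log2 intensity had a larger ratio; their median was 0.68. A dimmer Rgs2 probe gave 0.52 (limma adjusted p = 0.131), so the probes disagreed in size. The list's median was 0.15 (0.29 on array 1 and -0.023 on array 2), and 9 of 30 genes were higher and 3 lower at an unadjusted p under 0.05, beside 12% and 12.3% of all genes.

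Of 19 other Krüppel-like and helix-loop-helix genes, 18 were tested, 1 was called higher and 1 lower, and the median was -0.24 (-0.14 on array 1 and -0.39 on array 2). At an unadjusted p under 0.05, 2 were higher and 7 lower, beside 12% and 12.3% of all genes. Hey1, a Notch-responsive repressor, was 2.16 on array 1 and 2.34 on array 2, a mean of 2.25 ± 0.13 (SE, n = 2 arrays, limma adjusted p = 0.00145). Hes1, also known as a Notch target, was -1.33 and -1.79, a mean of -1.56 ± 0.15 (SE, n = 2 arrays, limma adjusted p = 0.00674). Each gene was on the same side of 0 on both arrays, and their probes were in the range of brightness where the median of all genes was near 0.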

How the data were processed

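Mean spot intensity, median local background intensity and the log10 ratio of Cy5 over Cy3 were produced by Agilent Feature Extraction, version 9.5.1.1, as deposited and per the file headers. A table of the series repeats the log10 ratios (largest difference 5e-10). Deposited p-values were not used.

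Background correction was normexp with an offset of 50, followed by loess on each array, control and outlier spots having no weight (limma 3.58.1, R 4.3.3, data.table version 1.17.8). Spots of a probe were averaged. Testing needed a signal well above background in 1 or both channels of each array, which 22612 of 41174 probes had. Log2 ratios were compared with 0 by limma (lmFit, then eBayes; two-sided), Benjamini-Hochberg adjusted over the tested probes, with a threshold of 0.05. A gene was its brightest tested probe. Having 2 arrays limits the precision. Channel levels were scaled with Aquantile.

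The 10 genes are named with every probe, and in each list up to 5 called genes or, with none called, the 2 widest ratios, besides H2-Ea. Blnk, Ms4a1 and Pax5 are the called B lineage markers, and Sdc1, Jchain, Ltf and Slc4a1 are the called markers of other cell types. The genes and lists were chosen with earlier results of these data known. The fit was run on data simulated from its own variance model, with no effect of dye or brightness. Such a run checks the code only. The closing section gives the alternatives. Figures were drawn with matplotlib 3.10.9.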

Additional observations from a re-analysis of the deposited data

How the results depend on the processing

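Of the 10 genes, 2 were called higher and 0 lower. Called higher were 0 with the deposited ratios (1 at an unadjusted p under 0.05), 0 with separate channels (2 unadjusted), 1 with no filter on dim probes, 1 with a loess span of 0.1, 5 with median centring and 4 with median centring on detected probes; the last called 3 lower (Atf3, Bhlhe40, Fosl2). Over all genes, called higher were 299 with the deposited ratios, 9922 with median centring, 2788 with centring on detected probes and 106 with separate channels; called lower were 2504 with centring on detected probes, 707 with loess on detected spots, 244 with no filter and 71 with separate channels. Median centring and centring on detected probes called 12 and 1 other bZIP genes, 19 and 3 JNK, p38 and SRF genes, 24 and 18 other immediate early genes, and 10 and 7 Krüppel-like and helix-loop-helix genes. Loess on detected spots called 5 other immediate early genes (3 higher, 2 lower) and 4 Krüppel-like and helix-loop-helix genes (1 higher, 3 lower). Of all genes it called 4.44% higher and 4.68% lower. Requiring both channels above background called 2 immediate early genes higher, beside 3.83% of all genes called higher and 2.78% lower. Fosb reversed with median centring (0.11), as did Klf10 (0.48) and Klf6 (0.92); Klf6 was also above 0 with the deposited ratios (0.0062) and centring on detected probes (0.38). Leaving out an array leaves a value with no test: Klf6 ranged from -0.38 to 0.27 and Klf10 from -1.03 to 0.35. The cause was not tested. Centring on detected probes and the added loess fits were chosen after seeing the data. Each ratio pairs the channels of its array, so the main test was already a paired one. The fit with separate channels ignored that pairing.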
